A study of Mus musculus with 12 samples.

Results

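The histone cluster genes of the mouse are the genes whose symbols begin with Hist1, Hist2, Hist3 or Hist4, and they were taken from the Nascent-Seq table of mouse liver by that prefix alone. The prefix gave 58 of the 21490 gene symbols in the table, of which 14 exceeded 6 rpbp (reads per base pair of exon) in at least 1 of 12 libraries, the signal limit that the study set for its analyses. The livers came from untreated wild-type male C57BL/6 mice aged 3 to 6 months, which were kept in 12 hr of light and 12 hr of darkness. Livers were collected at 6 zeitgeber times (ZT, hours after lights on), namely ZT0, ZT4, ZT8, ZT12, ZT16 and ZT20, with 2 replicates at each time and no group that served as a control. Nascent-Seq sequences RNA that is still held on chromatin, here after removal of RNA with a poly(A) tail. Histone cluster mRNA as a rule has no such tail, and this step does not remove RNA without one. Finished histone mRNA carried over with the chromatin cannot be told apart from nascent RNA in these values. Both libraries of ZT8 and both of ZT20 were run on 2 lanes and the other 8 libraries on 1 lane, so the number of lanes and the time of day cannot be told apart for these time points.

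Histone cluster genes encode the proteins around which DNA is wound. H2A, H2B, H3 and H4 form the core of the nucleosome, and H1 binds the linker DNA between nucleosomes. These genes have no introns as a rule, are transcribed chiefly while DNA is being copied, and make the only known animal mRNAs that end in a conserved stem-loop in place of a poly(A) tail. The adult liver is largely made of hepatocytes that are not dividing. Cells that are not in S phase obtain histones from replacement genes, which lie outside the clusters and make ordinary polyadenylated mRNA.

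The stem-loop is the feature by which these mRNAs are cut and later bound, and it is shown here because it marks the genes as replication-type. A stem of 6 paired bases around a loop of 4 bases was searched on the sense strand within 150 bases after the stop codon (GGNNNNTTTNNNNNCC with the stem arms complementary), in the genome of the build the files use (mm9, GENCODE M1 annotation). It was found in 51 of the 58 genes, 21 to 58 bases after the stop codon. It was found in 86.6% of the 67 protein-coding genes of this annotation whose names begin with Hist1 to Hist4, and in 0.0224% of the 22313 other protein-coding genes. Of the other 7 members, 6 had no match in the window and 1, Hist3h2bb, had no coding match in the annotation. Among those 6 are Hist2h2bb, which was over the limit, and Hist2h2be. The stem-loop and 5 bases on either side are given 5′ to 3′ for 8 of the genes over the limit, picked to cover the stems and the types among them, with the stem and loop in capitals.
Hist1h4d (chr13:23673814-23673839, + strand): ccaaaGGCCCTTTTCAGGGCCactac
Hist1h4c (chr13:23789953-23789978, - strand): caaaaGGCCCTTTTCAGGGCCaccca
Hist2h4 (chr3:96066857-96066882, - strand): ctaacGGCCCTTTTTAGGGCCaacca
Hist1h4b (chr13:23849230-23849255, + strand): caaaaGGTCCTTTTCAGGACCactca
Hist1h1c (chr13:23831376-23831401, + strand): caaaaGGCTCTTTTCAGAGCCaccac
Hist2h2ac (chr3:96024336-96024361, - strand): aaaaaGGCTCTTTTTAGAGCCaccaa
Hist2h2ab (chr3:96024251-96024276, + strand): aaaaaGGCTCTTTTAAGAGCCaccaa
Hist1h2bc (chr13:23776511-23776536, + strand): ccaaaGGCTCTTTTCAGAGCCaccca
The stems fell by histone type. The first arm read GGCTCT in all 40 matched H1, H2A, H2B and H3 genes, whereas it read GGCCCT in 9 and GGTCCT in 2 of the 11 matched H4 genes. The loop read TTTC in 40 genes, TTTA in 8 and TTTT in 3. The stem-loop lay inside the span the table gives for the gene in 25 of the 51 genes, so that for the others the signal came from sequence upstream of it.

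The listed signal of the 58 genes was uneven, and its comparison with other genes depended on which members were counted. Their median was 0.442 rpbp (mean over 12 libraries), against 1.77 rpbp over all symbols. Over the 14 members in which at least 90% of 80-base windows occur once in the genome, the median was 3.00 rpbp. All symbols were not filtered in this way, and those 14 hold all 6 H1 genes and 0 of the 11 H3 genes. Of the 58 genes, 24.1% exceeded 6 rpbp in at least 1 library, against 29.2% of all symbols, and of those 14, 50% did. A mean below 1 rpbp was found for 37 members, and 2 of them, Hist2h2aa2 and Hist1h2bn, were listed at 0 in every library. The 14 members over the limit held 80% of the summed signal of the family. They lay on chromosome 13 (9 genes, the Hist1 cluster), on chromosome 3 (4 genes, the Hist2 cluster) and on chromosome 6 (Hist4h4). At the limit itself, Hist4h4 (highest library 6.8 rpbp) and Hist1h2bc (8.3 rpbp) were just inside, and Hist1h2bg (5.1 rpbp) and Hist3h2a (4.3 rpbp) just outside.

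**Figure D1:**
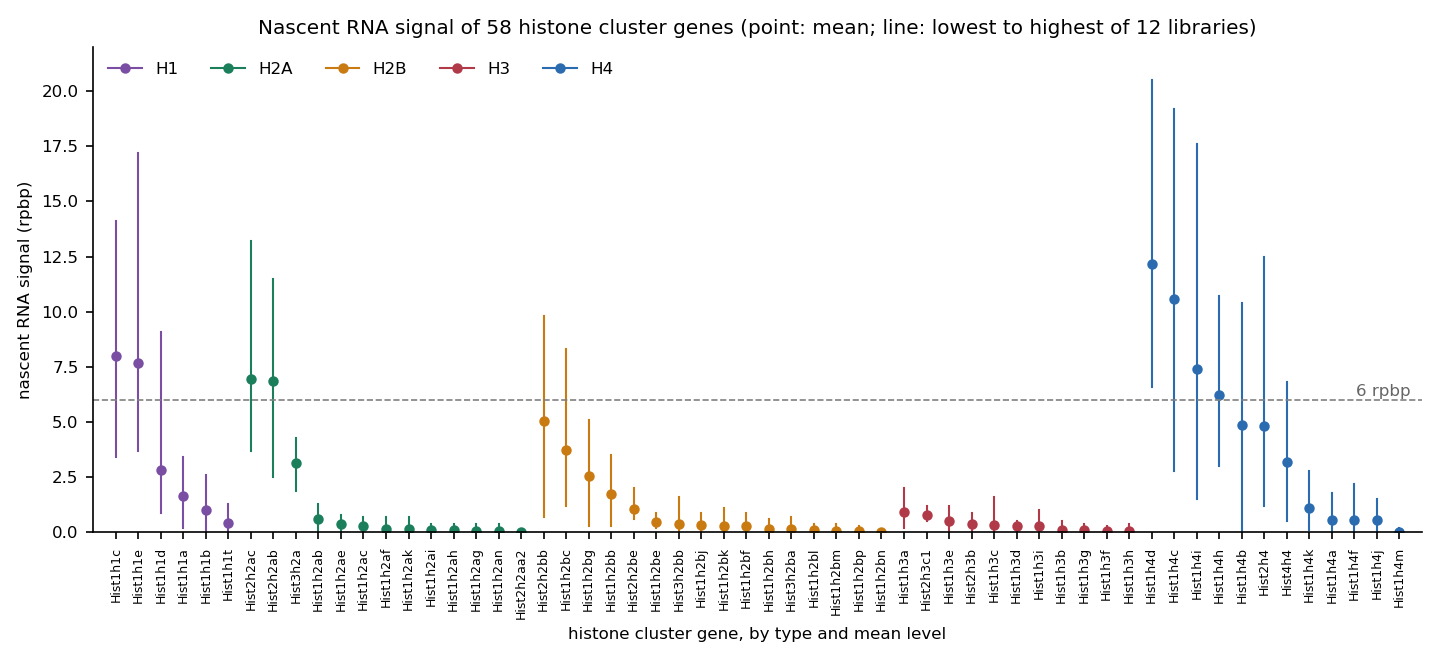
Nascent RNA signal in rpbp (y axis, linear) of the 58 histone cluster genes (x axis, ordered by type and mean); points are means of 12 libraries and lines run from the lowest to the highest library. H4 genes reach 20.5 rpbp, whereas no H3 gene exceeds 2.0 rpbp.

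Signal per base, added over genes, divided unequally among the histone types. Summed over its 12 genes, H4 held 46.2% of the signal of the family, and it was the highest type in 12 of 12 libraries (34.5% to 50.4% of the sum of a library). H1 held 19.1% with 6 genes, H2A 16.7% with 13 genes and H2B 14.6% with 16 genes. H3 held 3.44% with 11 genes, and both H2A and H2B exceeded it in 12 of 12 libraries. The order among H1, H2A and H2B was less firm, since H1 exceeded H2A in 9 and H2B in 10 of the 12 libraries, and H2A exceeded H2B in 8. These orders hold for signal per base, and the regions had a median length of 312 bases for H4 and 1236 for H1. By reads at the common depth to which values were scaled, the highest H4 genes were below the highest H1 genes. Their means correspond to 47.45 reads for Hist1h4d and 41.3 for Hist1h4c, against 155.5 for Hist1h1c and 185.8 for Hist1h1e.

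The H4 genes supplied 7 of the 14 genes over the limit, and the 2 highest of the family. Hist1h4d (chr13:23673471-23673782) had a mean of 12.2 ± 4.54 rpbp (SD over 12 libraries), with values of 10.3 and 17.6 at ZT0, 10 and 10.1 at ZT4, 6.6 and 15.3 at ZT8, 9.2 and 12.6 at ZT12, 6.6 and 9.7 at ZT16, and 20.5 and 17.5 at ZT20 (replicates 1 and 2). It was the only member above 6 rpbp in all 12 libraries. Hist1h4c (chr13:23790007-23790318) had a mean of 10.6 ± 4.87 rpbp, with 7.1 and 10.3 at ZT0, 7.6 and 11 at ZT4, 8.5 and 19.2 at ZT8, 11.2 and 9.5 at ZT12, 2.8 and 6.3 at ZT16, and 15.5 and 18.1 at ZT20. Both libraries of ZT20 were above both libraries of ZT16 for each of these genes, yet Hist1h4d exceeded Hist1h4c in 7 of the 12 libraries, so their order was not separated.

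Hist1h4i (7.40 ± 4.10 rpbp) read 6.5 and 6 at ZT0, 8.3 and 4 at ZT4, 6.6 and 17.6 at ZT8, 1.5 and 9.9 at ZT12, 4.2 and 5.3 at ZT16, and 10.1 and 8.8 at ZT20. Hist1h4h (6.23 ± 2.59 rpbp) read 3.6 and 5.3, 7 and 6.1, 4.8 and 8.8, 3 and 10.7, 3.4 and 4.3, and 8.7 and 9.1 at the same times in order. In both genes replicate 2 was above replicate 1 by over 1.5-fold at ZT8 and at ZT12. Hist1h4b (4.89 ± 3.13 rpbp) read 5.5 and 10.4, 5.1 and 3.5, 3.2 and 7.3, 1.4 and 3.7, 0 and 2.3, and 7.6 and 8.7, and so was lowest at ZT16 and above 7 rpbp in both libraries of ZT20. Hist2h4 (4.83 ± 2.91 rpbp) read 2.7 and 6.1, 5.8 and 6.1, 5 and 3.2, 1.2 and 5.1, 2.8 and 2.5, and 12.5 and 5. Its highest value stood alone, in replicate 1 of ZT20. Hist4h4, a single H4 gene that lies apart from the clusters on chromosome 6 (chr6:136752589-136752900), had a mean of 3.20 ± 2.25 rpbp and ran from 0.5 to 6.8 rpbp. Of the 14 genes over the limit, 7 overlap another symbol of the table, 6 of them the long span of BC128282 (mean 1.98 rpbp, named after its values were seen), so reads there can belong to either. The other 5 H4 genes had means of 0.0417 to 1.09 rpbp.

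The linker histone gene Hist1h1c (chr13:23830676-23832235, 7.97 ± 2.93 rpbp) read 4.6 and 8.1 at ZT0, 8.2 and 8.7 at ZT4, 7.9 and 14.1 at ZT8, 6 and 9.3 at ZT12, 5.1 and 3.4 at ZT16, and 10.7 and 9.6 at ZT20. Hist1h1e (chr13:23712498-23714427, 7.70 ± 3.44 rpbp) read 5.5 and 7.6, 6.7 and 7.9, 6.7 and 17.2, 5 and 10.5, 3.7 and 6.3, and 7.7 and 7.6 at the same times. In both, replicate 2 of ZT8 held the highest value and ZT16 the lowest. Hist1h1d, the other H1 gene over the limit, passed it in that same library alone (9.1 rpbp, against 0.9 to 4.4 rpbp in the other 11), so its place among the 14 rests on 1 value. Of the other linker genes, Hist1h1a had a mean of 1.64, Hist1h1b of 1.02 and Hist1h1t, the linker histone of the testis, of 0.408 rpbp. In each H1 gene 93.7% or more of the 80-base windows occur once in the genome, against a median of 52.8% over the 58 members.

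Among the core histones H2A and H2B, the genes over the limit were few and 3 of the 4 came from the small Hist2 cluster. The H2A genes Hist2h2ac (chr3:96024378-96024767, 6.94 ± 2.56 rpbp) and Hist2h2ab (chr3:96023839-96024231, 6.84 ± 3.06 rpbp) lie tail to tail, 146 bases apart. Hist2h2ac read 5.4 and 8.6 at ZT0, 6.7 and 7.5 at ZT4, 4.8 and 7.7 at ZT8, 3.7 and 6.9 at ZT12, 6.3 and 4 at ZT16, and 13.2 and 8.5 at ZT20. Hist2h2ab read 5.1 and 10.7, 4.1 and 3.5, 6.7 and 9.1, 2.5 and 8, 5.8 and 4.6, and 11.5 and 10.5. Each was the higher in 6 of 12 libraries, and without strand, signal that runs past the end of one of them cannot be told from its neighbour's. The H2B gene Hist2h2bb (5.03 ± 3.11 rpbp) read 0.7 and 7.2, 1.9 and 2.5, 6.2 and 9.8, 4 and 9.3, 5.1 and 1, and 5 and 7.7, and its replicates differed by over 1.5-fold at 5 of the 6 time points. Hist1h2bc (3.74 ± 2.03 rpbp) read 2.2 and 3.6, 2.2 and 1.2, 4 and 3.3, 2.9 and 6.7, 3.8 and 2.1, and 8.3 and 4.6, and exceeded 6 rpbp in 2 libraries.

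Most other H2A and H2B genes were near 0. Hist3h2a (3.17 ± 0.77 rpbp, 1.9 to 4.3) had the lowest coefficient of variation of the genes with a mean over 3 rpbp, but its span overlaps that of Trim17. Hist1h2bg (2.57 rpbp, 0.3 to 5.1) and Hist1h2bb (1.74 rpbp) followed. The median over genes was 0.150 rpbp for H2A and 0.317 rpbp for H2B. Of the 11 H3 genes, the highest was Hist1h3a with a mean of 0.933 ± 0.63 rpbp, and the lowest Hist1h3h with 0.0750 rpbp. H3 signal summed over the 11 genes was 1.4 to 6.9 rpbp in a library.

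Near-identical copies limit what these levels can say. The authors kept reads that mapped to 1 place, so a read from a stretch shared by copies was lost or misplaced. All 12 H4 genes have a coding sequence of 312 bases that encodes the same protein of 103 residues, and any pair of them agreed at 85.3% to 98.4% of the bases (median 93.9%). The first 80 coding bases, as long as a sequenced read, are given 5′ to 3′ for the 2 highest H4 genes, for the pair outside the Hist1 cluster, and for Hist1h4m, with bases that differ from Hist1h4d in capitals.
Hist1h4d (chr13:23673471-23673550, + strand): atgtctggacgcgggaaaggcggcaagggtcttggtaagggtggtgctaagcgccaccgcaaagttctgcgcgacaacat
Hist1h4c (chr13:23790239-23790318, - strand): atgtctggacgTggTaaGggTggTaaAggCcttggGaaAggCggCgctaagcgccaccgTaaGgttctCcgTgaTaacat
Hist2h4 (chr3:96067148-96067227, - strand): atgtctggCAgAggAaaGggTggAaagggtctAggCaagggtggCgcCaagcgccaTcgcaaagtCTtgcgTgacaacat
Hist4h4 (chr6:136752821-136752900, - strand): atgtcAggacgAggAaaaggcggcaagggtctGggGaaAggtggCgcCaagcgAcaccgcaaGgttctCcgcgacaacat
Hist1h4m (chr13:21903653-21903732, + strand): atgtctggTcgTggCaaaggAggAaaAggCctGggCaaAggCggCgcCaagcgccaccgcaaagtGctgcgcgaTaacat
Hist1h4c differed from Hist1h4d at 16 of these 80 bases and at 23 of all 312, so most of the bases that tell them apart lie in this first stretch. Hist4h4 differed at 11 of the 80 and 40 of the 312 bases.

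For each gene, the share of 80-base windows of its region that occur once in the genome was counted on exact matches. This share was 100% for Hist2h4, Hist4h4 and Hist2h2bb, 87.6% for Hist1h4d, 48.1% for Hist1h4c and 35.2% for Hist1h4b. It was 0% for Hist1h4m (0.2 rpbp in both libraries of ZT0, 0.1 in replicate 2 of ZT20 and 0 in the other 9) and for Hist2h2aa2 (listed at 0 in every library), so no read lying wholly inside either region could be placed uniquely, and a value of 0 there says nothing of transcription. Fewer than 50% of the windows were unique in 26 of the 58 genes, and 23 of these 26 were not over the limit. Across the 58 genes the mean signal and the share of unique windows had a Spearman correlation of 0.55, a description over genes that share sequence. Shares were lower when a match elsewhere could hold up to 2 mismatches. The median over the 58 genes was then 17.9%, against 52.8% on exact matches. Hist1h4d then had 24.0%, Hist1h4c and Hist1h4b 15.5% each, and Hist2h2ab 60.5%, against 92.0% on exact matches. Hist2h4 had 96.6%, and Hist4h4 and Hist2h2bb stayed at 100%.

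The 14 genes with at least 90% unique windows on exact matches ranged widely around their median of 3.00 rpbp. Of these, 7 were over the limit, led by Hist1h1c and Hist1h1e, and 7 were not, among them Hist2h2be (100%, 1.06 rpbp), Hist1h1b (100%, 1.02 rpbp) and Hist1h2be (91.3%, 0.475 rpbp). Dividing the mean by the unique share left H4 genes the highest but changed their order. Hist1h4c then had 22.03 rpbp, and Hist1h4b (mean 4.89 rpbp, 35.2% unique) and Hist1h4d each had 13.9 rpbp. The highest H3 value became 8.29 rpbp, in Hist2h3c1, where 9.56% of windows were unique. Hist1h3d, the H3 gene with the most unique windows (65.6%), stayed at 0.432 rpbp.

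**Figure D2:**
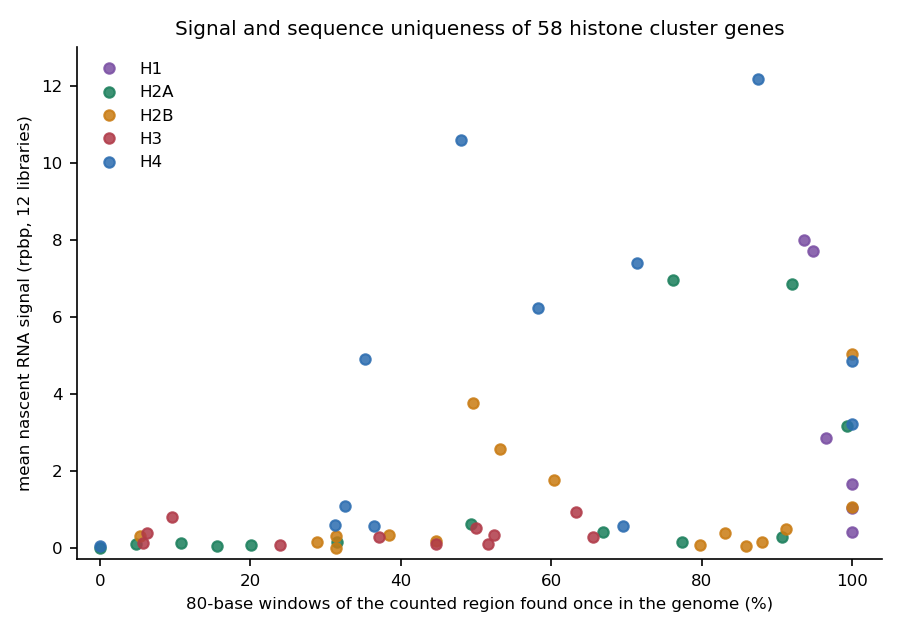
Mean nascent RNA signal in rpbp (y axis) against the percentage of 80-base windows of the counted region that occur once in the genome (x axis), 1 point for each of the 58 histone cluster genes, colored by type. Of the 26 genes under 50%, 3 exceed 3 rpbp (Hist1h4c, Hist1h4b and Hist1h2bc), and genes with 90% or more run from 0.275 to 7.97 rpbp.

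A larger share of histone values than of all values differed between replicates, a difference that was described and not tested. Over pairs of replicates in which at least 1 value exceeded 6 rpbp, 61.4% of 57 pairs of histone values differed by over 1.5-fold, against 21.4% of 28038 pairs of all symbols. A difference of over 2-fold was found in 33.3% of the histone pairs and in 6.59% of all pairs. The histone share was 91.7% at ZT8, 81.8% at ZT12, 75% at ZT16 and 70.0% at ZT0, but 33.3% at ZT20 and 12.5% at ZT4, where 1 of 8 pairs differed. The shares over all symbols were 33.1% at ZT8, 18.5% at ZT12, 34.3% at ZT16, 18.4% at ZT0, 12.5% at ZT20 and 12.3% at ZT4. At ZT4 both shares were thus alike, but 8 histone pairs are too few to show that the spread was the same. These regions are short. At the common depth to which the values were scaled, 6 rpbp over a region of 312 bases corresponds to 23.4 reads of 80 nt, and the mean of Hist1h4d to 47.4 reads, and fewer in the libraries themselves, all of which were scaled up to that depth, most of all those of 1 lane. The study's methods list library depths, which were not used here, and no interval of counting error was computed.

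Replicate 1 was the higher in 26.3% of the 57 histone pairs and in 43.8% of the pairs of all symbols. Gene by gene, replicate 2 was the higher at 5 of 6 time points for 6 of the 14 genes (Hist1h4d, Hist1h4c, Hist1h1e, Hist1h4h, Hist2h2bb and Hist1h4b) and at 4 for Hist1h1c and Hist2h2ac. Another 4 genes were split 3 to 3 (Hist1h4i, Hist2h2ab, Hist2h4 and Hist1h1d), and Hist1h2bc was higher in replicate 1 at 4 time points. In Hist4h4 replicate 1 was higher at 5 time points and equal to replicate 2 at ZT4, with means of 4.53 and 1.87 rpbp over the 6 time points. Over the 12 libraries, the 78 pairs among the other 13 genes all had Spearman correlations above 0 (0.24 to 0.91, median 0.60), whereas 9 of the 13 pairs with Hist4h4 did not (median -0.20). The median over all pairs of tested symbols was 0.08. The genes of a library share its depth and composition, so these are descriptions of the libraries.

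The study was made to find daily rhythms of transcription. Rhythm was scored as F24, the share of the variance of the 12 values that lies in their 24-hr Fourier component, and a gene was called rhythmic at a one-sided permutation p below 0.05, F24 above 0.45 and a ratio of highest to lowest value above 1.5. None of the 14 histone genes was called, against 955 of 6284 tested symbols (15.2%). None of the 14 had an unadjusted permutation p below 0.05, against 1032 of the 6284 symbols. F24 ran from 0.00245 in Hist1h4h to 0.44 in Hist1h4b, with a median of 0.17 against 0.22 over all tested symbols. Hist1h4b came nearest, with permutation p = 0.0794 and adjusted p = 0.367. All 14 met the limit on the ratio, Hist1h4d with the smallest (a highest value 3.11 times its lowest), and none met those on F24 and its p.

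A test for differences of any shape between the 6 time points gave no call either. In limma's moderated F-test on log2(rpbp + 1), 0 of 14 histone genes had an adjusted p below 0.05, against 481 of 6284 symbols (7.65%). Hist1h4b (adjusted p = 0.0920), Hist1h4c (adjusted p = 0.111) and Hist1h1c (adjusted p = 0.162) were the 3 members with an unadjusted p below 0.05 in that limma test. Of the 6284 tested symbols, 1737 had one, so the 3 do not stand out by this count. The labels do not say which animals or pools a replicate came from, so p-values measure the spread between these libraries, and with 2 replicates at a time neither test shows that the genes were constant. With the replicate number as a block in limma, Hist1h4b (adjusted p = 0.0487) and Hist4h4 (adjusted p = 0.0497) passed the threshold. Over all alternatives of the limma test, adjusted p ran from 0.0270 to 0.576 for Hist1h4b and from 0.0497 to 0.698 for Hist4h4.

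**Figure D3:**
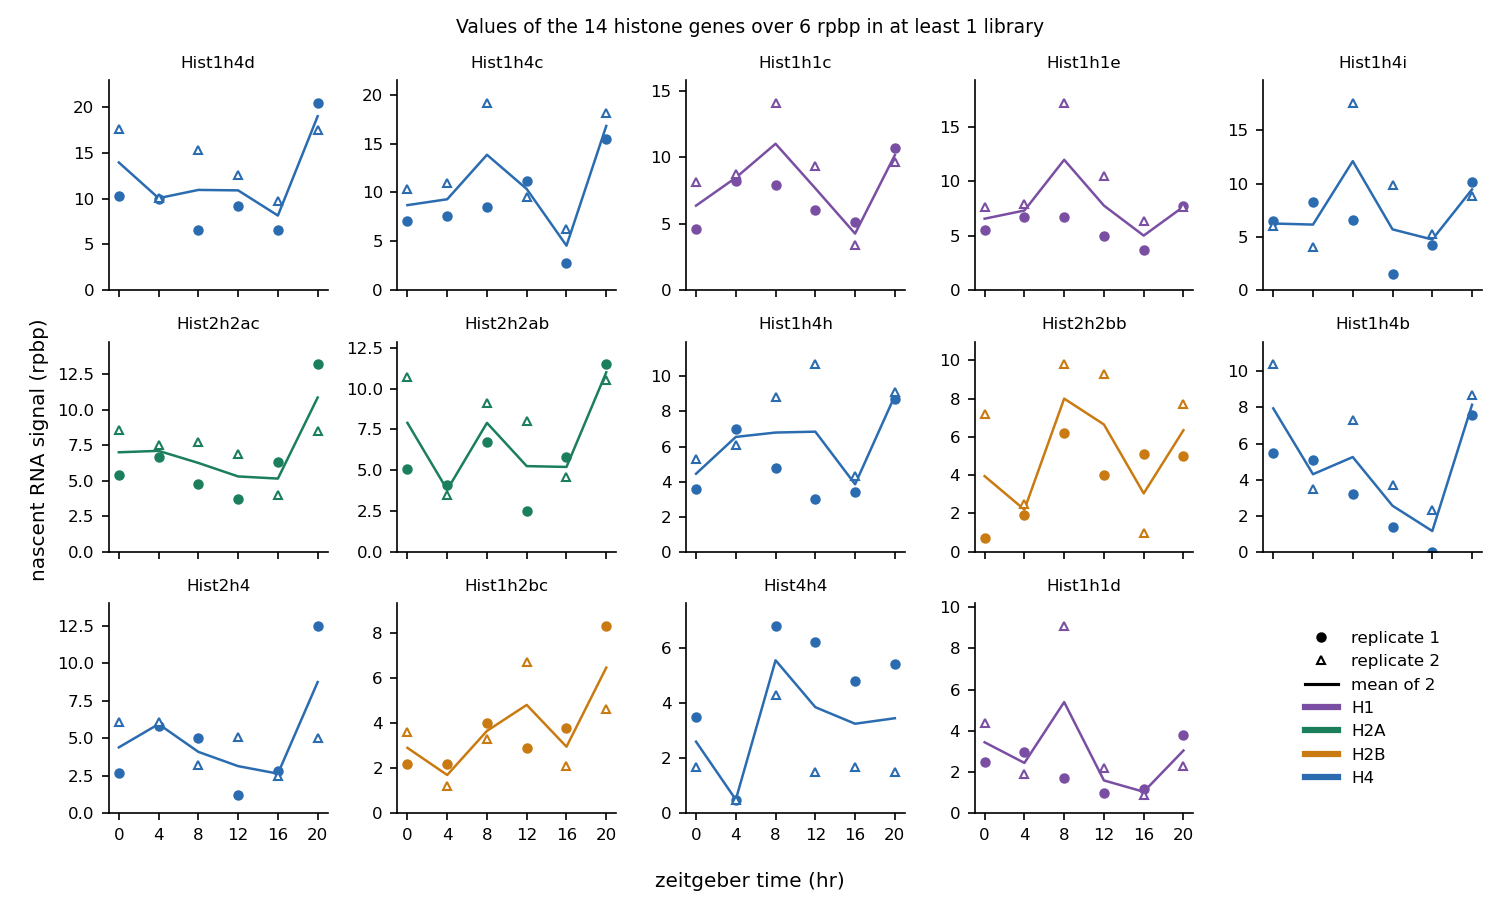
Nascent RNA signal in rpbp (y axes, linear, from 0, scaled to each gene) against zeitgeber time in hr (x axis) for the 14 histone genes over 6 rpbp in at least 1 library; filled circles are replicate 1, open triangles replicate 2, and the line joins the means of 2. The highest means are at ZT8 or ZT20 in all 14 genes.

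The profiles nevertheless had a common form. The highest mean was at ZT20 in 8 of the 14 genes and at ZT8 in the other 6, and the lowest was at ZT16 in 10 and at ZT4 in 4. Among all tested symbols, 35.9% had their highest mean at ZT8 or ZT20 and 43.3% their lowest at ZT4 or ZT16. By ratio, the largest differences between time points among the 14 were those of Hist4h4, from 0.5 ± 0 rpbp at ZT4 to 5.55 ± 1.77 at ZT8 (SD, n = 2), and of Hist1h4b, from 1.15 ± 1.63 at ZT16 to 8.15 ± 0.78 at ZT20. Hist1h4c had 4.55 ± 2.47 and 16.8 ± 1.84 rpbp at the same times. In each of the 14 genes both values of the highest time point were above both values of the lowest, which also held for 90.6% of the 6284 tested symbols, since the times were picked for being extreme. Passing the limit of 6 rpbp required 1 high library, so the 14 genes are not a neutral sample in this respect.

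ZT8 and ZT20 were then set against the other 4 time points in limma, a contrast chosen after the values were seen. All 14 genes were higher at ZT8 and ZT20, by 0.38 (Hist1h4d) to 0.94 (Hist2h2bb) on the log2(rpbp + 1) scale with a median of 0.62. The median over all tested symbols was -0.00342, and 49.7% of them lay above 0. Hist1h1d is among the 14 only through 1 library of ZT8, so its direction here adds nothing. The genes were measured in the same libraries, so they are not separate observations. No histone gene passed at an adjusted p below 0.05, against 5.62% of symbols called (3.25% called higher). The nearest was Hist1h4c, 0.85 ± 0.24 higher (SE) with an adjusted p of 0.0664 in limma, and the next Hist1h1c, 0.62 ± 0.20 higher with an adjusted p of 0.0841 in limma. Without replicate 1 of ZT8 the median difference of the 14 members was 0.79 (0.40 to 1.17), against -0.0203 over all tested symbols. The library then left for ZT8 is the one that put Hist1h1d over the limit. With each library left out in turn, the median over the tested members ran from 0.51 to 0.79. Of the 56 members with any signal, whether over the limit or not, 47 (83.9%) had a higher mean at ZT8 and ZT20, against 46.2% of the 20756 symbols with any signal. Only Hist1h4f, named after its values were seen, had its 4 values at those times (0.7 to 2.2 rpbp) all above its other 8 (0 to 0.6 rpbp), 1 of 56 members against 1.01% of the 20756 symbols.

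**Figure D4:**
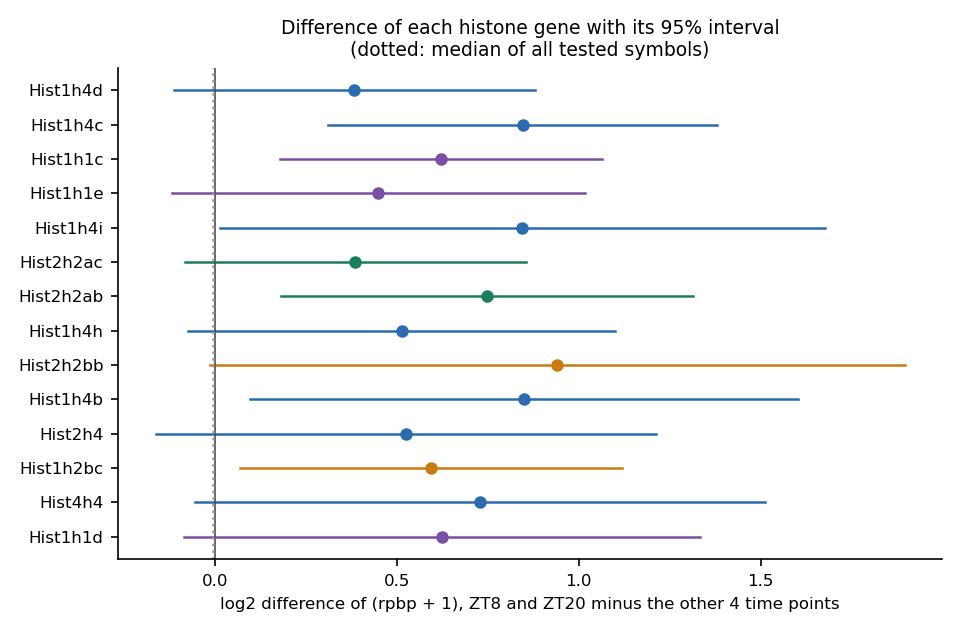
Difference of log2(rpbp + 1) between ZT8 with ZT20 and the other 4 time points (x axis) for the 14 histone genes (y axis); points are limma estimates, lines their 95% intervals, and the dotted line the median of 6284 symbols. All 14 estimates lie above 0, and 8 of the 14 intervals include 0. Hist1h1d is among the 14 only through 1 library of ZT8.

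The 4 libraries in question did not behave alike. The summed signal of the 58 genes was 183.8 rpbp in replicate 2 of ZT8, 170.5 and 146.6 in replicates 1 and 2 of ZT20, and 102 in replicate 1 of ZT8. In the 8 libraries of 1 lane it was 68 to 135.9 rpbp, with 134 in replicate 2 of ZT0 and 135.9 in replicate 2 of ZT12, so the groups overlapped. Between 11 and 13 of the 14 genes were above their own mean in the 3 highest of these libraries, 4 in replicate 1 of ZT8, and 0 in replicate 2 of ZT16. Members listed at 0 numbered 12 or 13 in the libraries of 2 lanes and 13 to 22 in those of 1 lane.

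Other features of these libraries also varied, and their part in the histone values was not tested. The log2 deviation of symbols in the highest of 20 bins of exon GC content, minus that in the lowest bin, was -1.2013 in replicate 2 of ZT8 and -0.561 in replicate 2 of ZT20, against -0.189 to 0.518 in the other 10 libraries. Removing this trend left all 14 differences above 0, with a median of 0.82. Rescaling the libraries by the median ratio gave a median of 0.63. The 6 hepatocyte markers (Alb among them, at 160.3 to 951.7 rpbp) summed to 732.6 to 1961.7 rpbp, with 1864.5 and 1961.7 in replicate 2 of ZT8 and of ZT20 and 832.6 and 849 in the libraries of ZT16. They did not follow the histone sums throughout, since replicate 1 of ZT12 had a marker sum of 1718.8 and a histone sum of 70.7 rpbp, and the single markers had their highest means at ZT8 (Alb and Cyp2e1), ZT12 (Tat, Cps1 and Apoa1) or ZT20 (Ttr). The 4 markers of Kupffer cells, the macrophages of the liver, moved apart from each other in replicate 1 of ZT8, where Marco read 20.5 rpbp (0.1 to 1.8 elsewhere) and Emr1 17.3 rpbp (3.1 to 5.1 elsewhere), but Clec4f read 1.6 rpbp, its lowest value (6.5 to 22.7 elsewhere). The fourth, Cd68, ran from 1.3 to 3.5 rpbp over the 12 libraries, while the histone sum there was 102 rpbp, as given above. In tissue, fewer cells that transcribe a gene and less transcription per cell cannot be told apart.

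**Figure D5:**
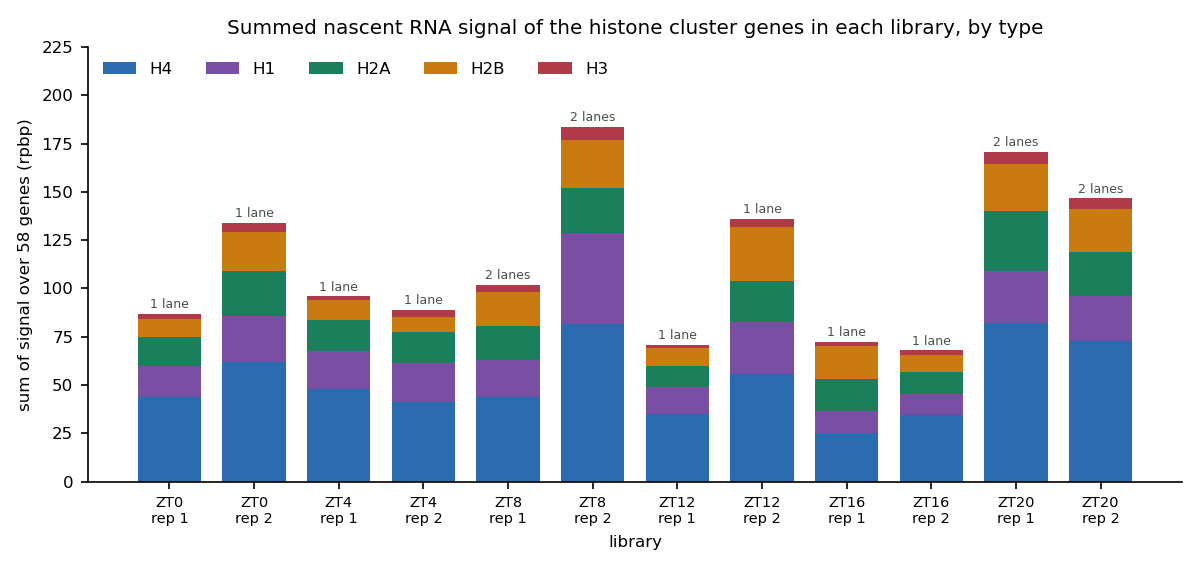
Summed nascent RNA signal of the 58 histone cluster genes in rpbp (y axis, from 0) in each of the 12 libraries (x axis), stacked by histone type, with the number of lanes above each bar. Replicate 2 of ZT8 and both libraries of ZT20 are highest, at 146.6 to 183.8 rpbp.

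Genes of S phase and mitosis were mostly low in the same libraries, and so were most histone cluster genes. The median of the means was 0.575 rpbp over 15 DNA replication genes and 0.483 rpbp over 9 proliferation markers. Over the 58 histone genes it was 0.442 rpbp, and 37 of these had means under 1 rpbp. The 9 proliferation markers in the table (of 10 listed) summed to 3.8 to 7.9 rpbp, and 8 of the 9 had means under 1 rpbp. Of 15 DNA replication genes, 11 had means under 1 rpbp and only Tk1, the thymidine kinase of the cytosol, exceeded the limit. Tk1 rose from 6.35 ± 1.91 rpbp at ZT0 to 24.7 ± 0.42 at ZT12 (SD, n = 2), was called rhythmic (F24 = 0.49, permutation p = 0.0488, adjusted p = 0.3001 by Benjamini-Hochberg) and passed limma's F-test with an adjusted p of 0.0447. Its time of highest signal, ZT12, was the highest for none of the 14 histone genes. Mcm7 (2.14 rpbp) and Pola1 (1.53 rpbp) followed, and the clamp gene Pcna had 0.575 rpbp. Erythroid markers, of which 3 of 5 had a value, summed to 1 to 3.5 rpbp, and B cell markers to 0.2 to 6 rpbp, with the highest sum in replicate 1 of ZT8.

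Of the 40 genes with a value that act on histones or replace them, 9 were over the limit and so tested, and 0 of these 9 were called, against 15.2% of symbols for rhythm and 7.65% for limma's F-test. Of the 11 replacement histone genes, 2 exceeded 6 rpbp in at least 1 library, the macroH2A gene H2afy (7.90 ± 1.23 rpbp) and H2afv (4 ± 1.59 rpbp), with H2afj next at 2.63 rpbp. The H3.3 genes H3f3b (2.12 rpbp) and H3f3a (0.767 rpbp) summed to 2.88 rpbp, and the means of the 11 cluster H3 genes to 3.88 rpbp. Of 20 genes for histone transcription and 3′ end processing with a value, 3 were over the limit: Ars2 (13.5 ± 2.92 rpbp), Sympk (7.81 ± 1.18 rpbp), a scaffold of the cleavage complex, and the CCAAT-binding subunit gene Nfyb (5.33 ± 1.28 rpbp). Npat, the coactivator of histone genes, had 2.50 rpbp, and Slbp, whose protein binds the stem-loop, 1.07 rpbp. Of 9 chaperone genes, 4 were over the limit, the 3 highest being Rbbp4 (6.87 rpbp), Nap1l4 (5.73 rpbp) and Asf1a (5.65 rpbp).

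Many of these genes lie close together. Of 15 neighboring pairs of members at most 1000 bases apart, 10 were divergent, 8 of them an H2A with an H2B gene. In such a pair the levels per base need not match. Hist1h2bc (3.74 rpbp over 728 bases) and Hist1h2ac (0.275 rpbp over 2482 bases) start 239 bases apart. Hist2h2ac (6.94 rpbp over 390 bases) and Hist2h2be (1.06 rpbp over 2618 bases) are 276 bases apart. The regions differ in length, and at the common depth the means correspond to 34.0 and 8.53 reads in the first pair. In the second pair they correspond to 33.8 and 34.6 reads over 390 and 2618 bases. Where in each region the reads lie was not examined. Promoters from RefSeq (GRCm38.p6, 250 bases before to 50 after the start) were matched for 52 members and searched on both strands. The letters CCAAT stood in all 41 promoters of H1, H2A, H2B and H3 genes but in 3 of 11 H4 promoters, against 37.9% of 27025 promoters. The letters TATAAA stood in 57.7% of the member promoters, against 14.2%, and ATTTGCAT, the octamer, in 6 of 13 H2A and 5 of 13 H2B promoters and in none of the others, against 1.75%. A divergent pair shares much of its window, so a match in both genes can be 1 site. TATAAA was found in 6 of 12 promoters of members over the limit and in 24 of 40 of the others.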

How the data were processed

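Nascent RNA was prepared from liver nuclei and sequenced without strand, in reads of 80 nt. Per the study's methods and the submitters' processing notes, the authors used CASAVA 1.7 and TopHat with mm9, kept uniquely mapped reads, merged the exons of each symbol, and deposited a coverage signal per exonic base (rpbp), brought to a common number of mapped reads in every library and given to 1 decimal. The deposited signal is coverage, not counts, so no count model was used, and the library depths that the study's methods list were not used here. The 3 columns of the authors' rhythm statistics (score, phase and p-value) were not used, and 0 columns of sample values were left unmapped.

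All 12 libraries were grouped by the zeitgeber time in their labels. Tests ran on the 6284 symbols over 6 rpbp in at least 1 library. F24 was tested with 100000 permutations (10000 in alternatives), one-sided. Differences between time points were tested with limma 3.58.1 (R 4.3.3) on log2(rpbp + 1), with Benjamini-Hochberg adjustment over all tested symbols; fold changes of low genes are understated on this scale. Other steps used Python 3.11.15, numpy 2.4.6, pandas 2.3.3 and scipy 1.17.1, and the statistics were tested on simulated data. Windows of 80 bases were counted in the mm9 genome. The named genes are the 14 over the limit, with the highest genes of each type and of each list. The members and lists were chosen with earlier results of these data known. Alternatives covered the filter, pseudocount, scaling, GC content, overlap, replicate block, lanes and leaving out each library.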

Additional observations from a re-analysis of the deposited data

How the results depend on the processing

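The count of rhythmic histone genes, 0 of 14, became 1 without a filter (Hist1h4m, named after its values were seen), 1 for a 12-hr component in place of the 24-hr one (an alternative chosen after seeing the data), and 0 to 1 with 1 library left out, where Hist1h4b passed without replicate 2 of ZT8 (F24 = 0.59, permutation p = 0.0329). Whether replicate numbers pair the libraries was not settled. Over 15 pairs of time points the correlation of deviations was -0.117 to 0.320 (median 0.0734), with 5 over 0.1. With the replicate block, limma's F-test called 2 histone genes in place of 0 (Hist1h4b and Hist4h4) and 455 symbols in place of 481. With 1 library left out it called 0 to 1, namely Hist1h1d without replicate 1 of ZT8 (limma, adjusted p = 0.0483), a call fixed by the one value that put the gene over the limit, and Hist1h4b without replicate 2 of ZT16 (limma, adjusted p = 0.0270), and 167 to 663 symbols; the lone library of a time is then assumed to vary like the others. Adjusted p ran from 0.0483 to 0.930 for Hist1h1d over the limma alternatives. Without a filter limma called 133 symbols. In the contrast of ZT8 and ZT20, 131 symbols were called after removal of the GC trend, against 353 before. With the replicate block it called 1 histone gene (Hist1h4c), against 523 of 6284 symbols (8.32%). Genes over the limit numbered 7 at 12 rpbp, 8 by the mean over the 12 libraries, and 7 without genes that overlap another symbol, against 14. The median level of 0.442 rpbp was 1.18 rpbp per unique share (chosen after seeing the data), and 0.4 to 0.473 rpbp with 1 library left out. Over members with at least 90% unique windows it was 3.00 rpbp, against 1.77 rpbp for all symbols, which were not so filtered. The share of replicate pairs differing over 1.5-fold, 61.4%, was 53.3% to 69.4% with 1 library left out. F24 could not be had within the time points of 1 lane or for ZT8 against ZT20. There limma called 0 of 14 histone genes each time, against 120 and 96 of 6284 symbols. Short regions, shared sequence and 2 replicates limit every value.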

Other observations

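A 12-hr component was computed after the profiles were seen. It was called for 1 of the 14 histone genes, Hist1h4c (F12 = 0.57, permutation p = 0.0278, adjusted p = 0.333 by Benjamini-Hochberg), against 11.7% of 6284 symbols, and the median share of variance in it was 0.30 for the 14 genes and 0.22 for all tested symbols. No symbol passed after adjustment, and 802 symbols had an unadjusted permutation p below 0.05.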
